A study of Homo sapiens with 30 samples.

Results

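The 39 genes described here encode the DNA replication machinery, from the proteins that license origins to the factor that places histones behind the fork. They come from a list of names that was chosen with earlier results of these data known. All 39 were found by gene identifier among the 60483 gene records measured in PANC-1 cultures. PANC-1 is an established epithelial cell line from a human pancreatic ductal adenocarcinoma, and all cultures here were wild type. RNA-seq was measured in 30 libraries, 10 groups of 3 that the sample labels call biological replicates. The groups were tumoroids without synthetic cells (DSLB-free), hybrid tumoroids with plain DSLBs (synthetic cells made of a silicone oil core under a mobile lipid bilayer), and hybrids whose DSLBs presented immune cell surface proteins. PD-1 was presented alone or paired with TIGIT, LAG3, ICOS, CTLA4, CD40L, CD27 or CD2. Cultures were grown in medium with 1% serum, and 150 ng of total RNA entered each library. All 8 groups with a protein carried PD-1, so an effect of PD-1 and an effect of any protein on the droplet cannot be told apart, and no group carried a second protein without PD-1.

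DNA replication begins when the origin recognition complex, with CDC6 and CDT1, loads rings of the MCM helicase onto DNA before S phase. At S phase CDC45 and the GINS complex join each ring and start it, polymerase alpha-primase lays down primers, and polymerases delta and epsilon extend them on the sliding clamp PCNA, which the RFC complex loads. Many of these genes are transcribed at the G1/S transition under E2F factors, and for that reason their mRNAs are widely read as a proliferation signature in tumour cells. In bulk RNA, fewer cells in S phase and less of an mRNA per cell cannot be told apart.

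The RefSeq promoter windows of GRCh38.p14, which run from 250 bases before to 50 bases after a transcription start, held 41 windows of 33 of the 39 genes. MCM4, MCM5, GINS4, POLD3, RPA2 and RPA3 had no entry. The E2F motif TTTNNCGC, searched on both strands, was in 20 of the 41 windows (48.8%), compared with 6.89% of all 35116 windows. The CCAAT box (CCAAT, both strands) was in 25 of 41 (61.0%), compared with 34.6% of all windows, and the CHR element (TTTGAA, both strands) in 1 of 41 (2.44%), compared with 15.2%. The motifs were counted separately, so their matches may share letters, and a match is a run of letters, not a site of binding. Stretches of the 100 bases before the start are shown for 7 genes, picked after their values were seen, with E2F matches in capitals. None of the 7 is a gene that was lower in PD-1 than in plain DSLB hybrids without a match in any window. ORC1, MCM10, CHAF1A and CDC45 were among such genes, at log2 fold changes of −0.59, −0.58, −0.50 and −0.50. GINS2, MCM6, POLE and TYMS were lower in PD-1 hybrids than in plain DSLB hybrids, CDT1 and RFC3 hold the motif and did not pass that test, and RFC4 holds no match and had the smallest difference of the RFC genes. They are at chr16:85688955-85689054 (GINS2, minus strand), chr2:135876444-135876543 (MCM6, minus strand), chr12:132687343-132687442 (POLE, minus strand), chr18:657553-657652 (TYMS, plus strand), chr16:88803689-88803788 (CDT1, plus strand), chr13:33818049-33818148 (RFC3, plus strand) and chr3:186806483-186806582 (RFC4, minus strand), and each reads 5′ to 3′ along its gene.
GINS2: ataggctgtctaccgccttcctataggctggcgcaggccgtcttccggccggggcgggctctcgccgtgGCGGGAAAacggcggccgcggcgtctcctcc
MCM6: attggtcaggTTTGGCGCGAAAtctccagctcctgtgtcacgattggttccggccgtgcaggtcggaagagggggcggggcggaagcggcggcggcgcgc
POLE: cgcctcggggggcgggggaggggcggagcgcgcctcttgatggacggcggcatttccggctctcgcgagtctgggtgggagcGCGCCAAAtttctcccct
TYMS: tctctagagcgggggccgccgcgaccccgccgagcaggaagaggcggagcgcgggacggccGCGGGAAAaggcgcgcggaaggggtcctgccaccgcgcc
CDT1: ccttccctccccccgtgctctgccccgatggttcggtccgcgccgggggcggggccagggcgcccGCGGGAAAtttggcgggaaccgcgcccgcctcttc
RFC3: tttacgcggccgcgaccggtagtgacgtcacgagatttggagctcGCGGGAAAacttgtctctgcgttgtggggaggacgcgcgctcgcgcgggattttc
RFC4: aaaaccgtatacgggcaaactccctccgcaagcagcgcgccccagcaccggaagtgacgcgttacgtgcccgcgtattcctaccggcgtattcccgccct

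In MCM6 the capitals hold 2 overlapping matches, 1 on each strand, that begin 90 and 86 bases before the start. In the other windows with a match it begins 31 (GINS2), 18 (POLE), 39 (TYMS), 35 (CDT1) and 55 (RFC3) bases before the start. Among the 26 windows of 21 genes that were lower in PD-1 hybrids, 14 (53.8%) held the E2F motif and 20 (76.9%) the CCAAT box. Among the 15 windows of 12 other genes, 6 (40.0%) held the E2F motif and 5 (33.3%) the CCAAT box. These shares count windows, and some genes have several.

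The libraries held 21.9 to 60.5 M expected counts, and the 39 genes took 0.133 to 0.194% of them. The filter on low counts kept 18424 genes, among them all 39, whose lowest count in any library was 91 (POLE2). Levels between libraries are given as CPM (read counts scaled to TMM-adjusted library size), levels between genes as TPM (a transcript share that allows for length), and changes as log2 fold changes from edgeR. Their standard errors (SE) were derived from the test, as the absolute log2 fold change divided by the square root of edgeR's F statistic. Of 6 epithelial markers KRT8 averaged 3084, KRT18 1476 and KRT19 1255.5 TPM, and EPCAM 58.0, CDH1 27.0 and KRT7 12.7 TPM. Of 6 leukocyte markers CD3E was at 0 in every library and the list summed to between 0.51 and 1.83 TPM. Of 5 fibroblast markers COL1A1 averaged 218 TPM and COL1A2 0.072 TPM. The libraries least like the rest of their group were replicate 3 of PD-1/LAG3, replicate 2 of the DSLB-free tumoroids and replicate 1 of PD-1, whose counts differed from the other libraries of the group by a chi-square 8.52, 5.84 and 3.87 times that between those others. In the GENCODE annotation 21 of the 39 genes overlap a gene on the opposite strand, RPA3 for most of its length with UMAD1. FEN1, POLA2, POLD1 and PRIM1 overlap another protein-coding record on their own strand. The library kit was directional, but the use of strand in counting is not given in the sources used here. Values of overlapping genes, such as TYMS with ENOSF1 on the other strand, are therefore less certain.

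Levels per length spanned a wide range within the same machinery. RPA1, the large subunit of the protein that coats single-stranded DNA, was highest at a mean of 116 TPM over all libraries, followed by RPA3 at 97.5, PCNA at 93.4 and MCM7 at 90.1 TPM. ORC1, the subunit of the origin recognition complex that varies with the cell cycle, was lowest at 2.86 TPM, followed by GINS3 at 3.20 and POLA1 at 3.76 TPM. The 6 subunits of the MCM ring, which join in equal number, were not at equal mRNA levels. MCM7 was highest and MCM6 lowest of the 6 in every group, at 108 and 34.4 TPM in plain DSLB hybrids and 81.8 and 25.0 TPM in PD-1 hybrids. The span from highest to lowest was between 3.14-fold (plain DSLB) and 3.89-fold (PD-1/CD40L). Within the other roles the highest and lowest levels were 20.7 TPM for CDC6 and 2.86 for ORC1 in licensing, 8.10 for GINS1 and 3.20 for GINS3 in helicase activation, 17.2 for POLA2 and 3.76 for POLA1 in polymerase alpha-primase, and 19.7 for POLE and 5.72 for POLE2 in the leading and lagging strand polymerases. They were 93.4 TPM for PCNA and 7.48 for RFC3 in the clamp and its loader, 116 for RPA1 and 43.1 for RPA2 in single-strand binding, 32.9 for FEN1 and 16.0 for LIG1 in Okazaki fragment maturation, and 75.7 for RRM2 and 64.1 for TYMS in nucleotide supply. CHAF1A, the large subunit of chromatin assembly factor 1, averaged 9.33 TPM.

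**Figure D1:**
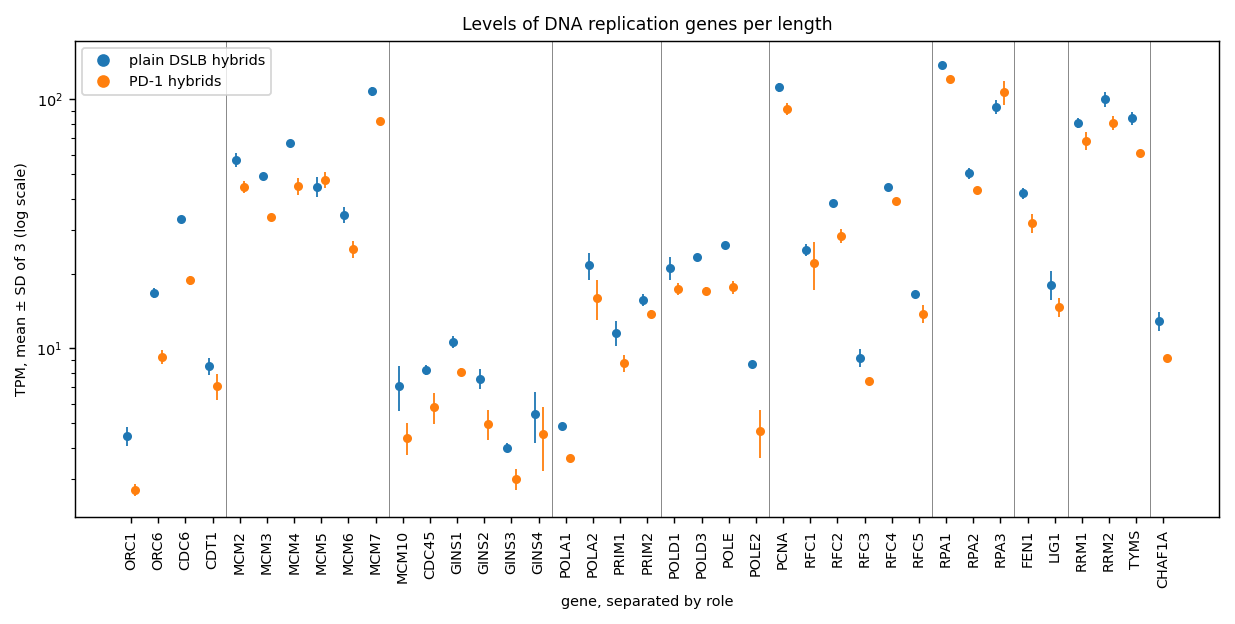
TPM on a log scale (y axis) of each of the 39 DNA replication genes (x axis, separated by role) in plain DSLB hybrids (blue) and PD-1 hybrids (orange), as mean ± SD of 3 libraries. Levels run from a few TPM for ORC1 and GINS3 to about that of RPA1, whose mean over all libraries was 116 TPM, and most orange points lie below the blue point of the same gene.

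No single gene of the 39 differed detectably between hybrids with plain droplets and tumoroids without them. Between plain DSLB hybrids and DSLB-free tumoroids edgeR called none of the 39 (adjusted p under 0.05), beside 0.0109% of all genes tested, and 1 of the 39 had an unadjusted p under 0.05, as did 6.10% of all genes. Their median log2 fold change was −0.02 and that of all genes 0.00, with a median SE of 0.0831 for the 39, and 28 of the 39 were negative. The summed TPM of the 39 was 1524, 1562 and 1588 in the DSLB-free libraries and 1511, 1438 and 1441 with plain DSLBs, so all 3 plain DSLB libraries were lower. The smallest p-values were those of POLE2, a subunit of polymerase epsilon, with a log2 fold change of 0.26 (SE 0.128, edgeR adjusted p = 0.814), and RFC4, with −0.16 (SE 0.0869, edgeR adjusted p = 0.862). DESeq2 and limma-voom on the same libraries called none of the 39 either.

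With a protein on the DSLBs the replication genes were lower, and the controls and the protein groups separated without overlap for 19 of them. The 39 genes summed to 1558 ± 32.5 TPM in DSLB-free tumoroids and 1463 ± 41.4 TPM in plain DSLB hybrids (SD, n = 3 each). With PD-1 alone they summed to 1184 ± 25.1 TPM. With a second protein the sums were 1090 ± 47.6 (CD2), 1120 ± 40.8 (CD27), 1057 ± 3.67 (CD40L), 1084 ± 10.5 (CTLA4), 1120 ± 31.8 (LAG3) and 1220 ± 20.2 TPM (TIGIT), and the ICOS libraries were at 1050, 1149 and 1111 TPM. Each of the 24 libraries with protein lay below each of the 6 without, whose lowest sum was 1438 TPM against 1240 TPM for the highest with protein. For ORC1, ORC6, CDC6, MCM2, MCM3, MCM4, MCM6, MCM7, MCM10, GINS1, GINS2, GINS4, POLA1, POLA2, POLD3, POLE, RRM1, RRM2 and CHAF1A, all 24 protein libraries had a lower CPM than all 6 control libraries. Among all 18424 genes 5.11% did so. For the other 20 genes the libraries overlapped, and for none were the protein libraries all higher, which was the case for 4.43% of all genes.

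**Figure D2:**
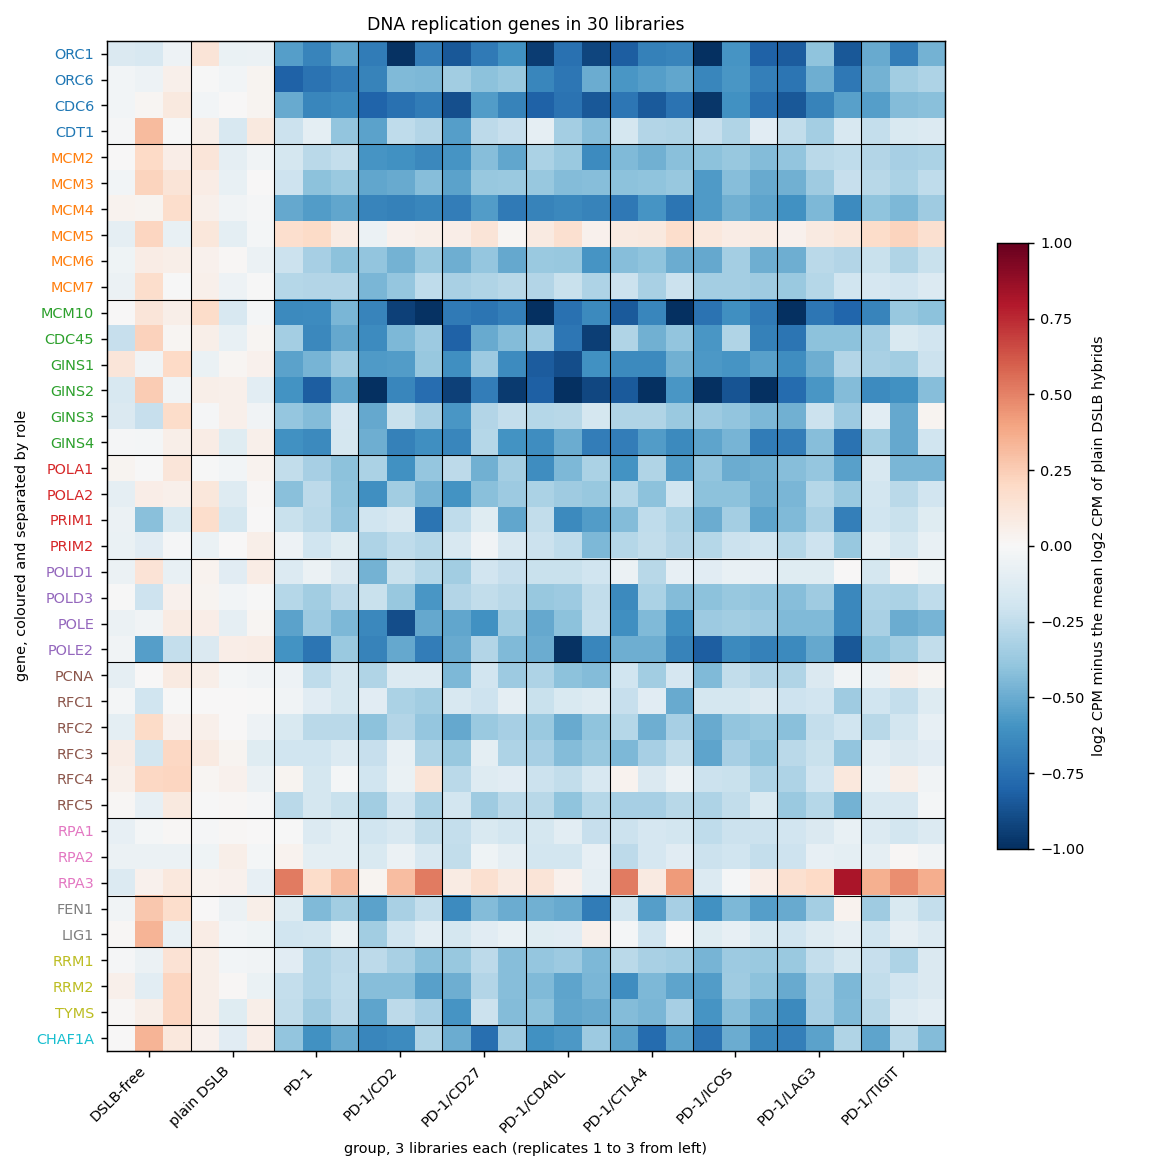
Log2 CPM of the 39 DNA replication genes (rows, coloured and separated by role) in 30 libraries (columns, 3 per group), minus the mean of the plain DSLB hybrids (colour scale from −1, blue, to 1, red, with values beyond it drawn in the end colour). The 24 libraries with protein are blue in most rows and the 6 without are near white, while MCM5 and RPA3 are pale or red with protein.

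PD-1 hybrids, compared with plain DSLB hybrids, had 24 of the 39 genes lower and none higher (edgeR, adjusted p under 0.05), beside 10.7% of all genes lower and 22.0% in either direction. The median log2 fold change of the 39 was −0.29 and that of all genes −0.00, and the median gene stood at 0.816 times its level with plain DSLBs. Their CPM did not overlap between the groups for 32 of the 39, beside 46.8% of all genes. Without the 3 libraries that stood apart the count was also 24, and RFC5 was not among the genes called (edgeR adjusted p = 0.0565). Other lists moved in the same comparison. The 13 mitochondrial mRNAs summed to 30800 to 49840 TPM with PD-1 and 69050 to 74851 TPM with plain DSLBs. The list of 6 epithelial markers, nearly all of it KRT8, KRT18 and KRT19, summed to 5941 to 6356 against 4565 to 4933 TPM. The fibroblast list, nearly all of it COL1A1, summed to 185 to 225 against 300 to 339 TPM. Their part in the result was not tested. In PD-1/CD27 hybrids, where 31 of the 39 genes were lower than with plain DSLBs (11.4% of all genes lower), the mitochondrial mRNAs summed to 67991 to 81581 TPM, the epithelial markers to 5967 to 6202 TPM and the fibroblast list to 141 to 173 TPM. A list of 8 nuclear transcripts such as MALAT1 summed there to 2033 to 2829 TPM, against 1654 to 1765 TPM with plain DSLBs and 1424 to 1694 TPM with PD-1. PD-1/CD27 had the highest mean mitochondrial sum of all groups, 74804 TPM, and PD-1/LAG3 the lowest, 42817 TPM. In PD-1/LAG3 hybrids 30 of the 39 genes were lower than with plain DSLBs (14.1% of all genes lower). The part of these lists was not tested in any group.

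Origin licensing genes had the largest median fall of the roles with more than 1 gene, −0.59, with 3 of 4 called. ORC6, a subunit of the origin recognition complex, was at 14.1, 13.9 and 14.9 CPM in the DSLB-free libraries, 14.3, 14.1 and 14.7 CPM with plain DSLBs and 8.20, 8.62 and 8.92 CPM with PD-1. PD-1 was the group with the lowest mean of ORC6 of all 10, and against plain DSLBs ORC6 fell by 0.74 on the log2 scale (SE 0.0787, edgeR adjusted p = 8.43e-08). CDC6, the ATPase that helps to load the MCM ring, was at 38.5, 39.8 and 41.9 CPM without DSLBs, 38.4, 39.2 and 40.0 CPM with plain DSLBs and 27.6, 25.0 and 25.3 CPM with PD-1. It fell by 0.59 (SE 0.0837, edgeR adjusted p = 7.85e-06), and in no protein library did it exceed 29.3 CPM. ORC1 fell by 0.59 as well, from 8.71 ± 0.672 to 5.82 ± 0.288 CPM (SD, n = 3 each, SE of the log2 fold change 0.118, edgeR adjusted p = 0.000635). CDT1, the loading partner of CDC6, had a log2 fold change of −0.23 and did not pass (SE 0.109, edgeR adjusted p = 0.141).

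Of the 6 MCM genes, 5 fell and MCM5 did not pass. MCM4 was at 104, 104 and 115 CPM in DSLB-free tumoroids, 105, 99.1 and 101 CPM with plain DSLBs and 71.2, 68.9 and 71.0 CPM with PD-1. Over all groups the highest protein library was at 79.4 CPM and the lowest control library at 99.1, and with PD-1 the log2 fold change was −0.53 (SE 0.0575, edgeR adjusted p = 1.22e-07). MCM3 (−0.33, SE 0.0697, edgeR adjusted p = 0.00117), MCM6 (−0.32, SE 0.0687, edgeR adjusted p = 0.00132) and MCM7 (−0.29, SE 0.0608, edgeR adjusted p = 0.00105) changed by similar amounts. MCM2 fell from 103, 89.1 and 92.6 CPM to 83.7, 78.5 and 80.1 CPM (−0.23, SE 0.0689, edgeR adjusted p = 0.0158), and its call was lost without plain DSLB replicate 1 (edgeR adjusted p = 0.147), PD-1 replicate 2 (0.0739) or PD-1 replicate 3 (0.0576), with the gene length trend removed (−0.17, 0.123) and without the low-count filter (0.0603). MCM5 was at 57.8, 49.9 and 52.7 CPM with plain DSLBs and 59.9, 60.9 and 56.6 CPM with PD-1, and these overlapped (0.15, SE 0.0677, edgeR adjusted p = 0.123). Within the ring the ratio of MCM4 to MCM5 in TPM was 1.47, 1.49 and 1.64 in the DSLB-free and 1.35, 1.55 and 1.61 in the plain DSLB libraries. It lay between 0.789 ± 0.0764 (PD-1/CD40L) and 1.03 ± 0.0405 (PD-1/TIGIT) in the protein groups and was 0.942 ± 0.00775 with PD-1 alone (SD, n = 3 each). No protein group's mean reached the lowest control library. The ratio sets the MCM gene with the largest fall against the only one not called, so this separation follows from the pair chosen and is no further evidence.

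**Figure D3:**
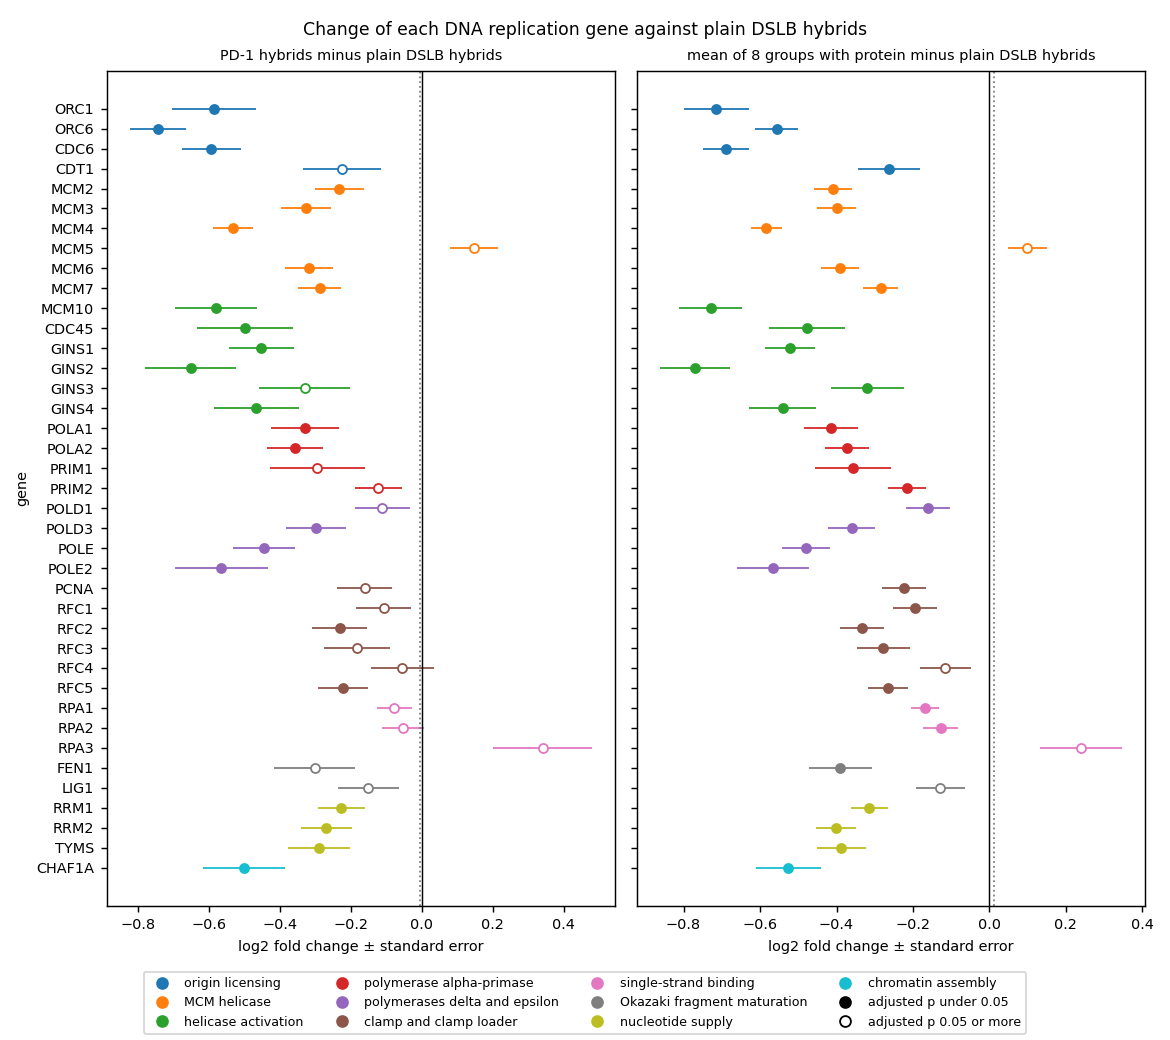
Log2 fold change ± SE (x axis) of each DNA replication gene (y axis, coloured by role) for PD-1 against plain DSLB hybrids (left) and for the mean of the 8 protein groups against plain DSLB hybrids (right). Filled points passed edgeR at an adjusted p under 0.05 (24 on the left, 35 on the right), the dotted line is the median of all genes, and MCM5 and RPA3 lie to the right of 0 in both panels.

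The genes that turn the loaded ring into a working helicase were mostly lower, with 5 of 6 called and a median log2 fold change of −0.48. GINS2, a subunit of the 4-part GINS complex, was at 8.95, 8.92 and 8.01 CPM with plain DSLBs and 5.70, 4.86 and 6.01 CPM with PD-1, with no overlap (−0.65, SE 0.129, edgeR adjusted p = 0.000526). GINS4 (−0.47, SE 0.121, edgeR adjusted p = 0.00604) and GINS1 (−0.45, SE 0.0907, edgeR adjusted p = 0.000620) of the same complex fell too. GINS3, the least expressed subunit, had −0.33 and did not pass (SE 0.129, edgeR adjusted p = 0.0656). MCM10, which is needed to start the assembled helicase, fell by 0.58 (SE 0.115, edgeR adjusted p = 0.000570). CDC45, which travels with the ring and GINS as the active helicase, fell by 0.50 (SE 0.136, edgeR adjusted p = 0.00890), a call lost without PD-1 replicate 2 (edgeR adjusted p = 0.0622), as was that of GINS4 (0.0506). By limma-trend on TPM GINS4 had −0.26 and did not pass (adjusted p = 0.399).

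Among polymerases, both subunits of polymerase alpha were lower and both primase subunits did not pass. POLA2, the regulatory subunit, fell by 0.36 (SE 0.0791, edgeR adjusted p = 0.00161) and POLA1, the catalytic one, by 0.33 (SE 0.0952, edgeR adjusted p = 0.0133). PRIM1 had −0.29 (SE 0.134, edgeR adjusted p = 0.118) and PRIM2 −0.12 (SE 0.0661, edgeR adjusted p = 0.186). Of polymerase epsilon, which extends the leading strand, POLE was at 71.7, 64.2 and 69.4 CPM with plain DSLBs and 47.2, 53.3 and 50.2 CPM with PD-1, without overlap (−0.45, SE 0.0875, edgeR adjusted p = 0.000496). Its second subunit POLE2 fell by 0.57 (SE 0.130, edgeR adjusted p = 0.00239). Of polymerase delta, which extends the lagging strand, the accessory subunit POLD3 fell by 0.30 (SE 0.0838, edgeR adjusted p = 0.0107) and the catalytic subunit POLD1 had −0.11 (SE 0.0770, edgeR adjusted p = 0.317). POLA1 no longer passed with a trend on gene length removed (−0.15, edgeR adjusted p = 0.154) or without PD-1 replicate 3 (0.0564), nor POLD3 without plain DSLB replicate 1 (0.0515).

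The clamp, its loader and the single-strand binding protein changed least. PCNA had a log2 fold change of −0.16 (SE 0.0774, edgeR adjusted p = 0.138). Of the 5 loader genes RFC2 (−0.23, SE 0.0779, edgeR adjusted p = 0.0327) and RFC5 (−0.22, SE 0.0695, edgeR adjusted p = 0.0219) passed. RFC2 lost its call without any plain DSLB library or PD-1 replicate 2 or 3 (edgeR adjusted p = 0.0558 to 0.134), and RFC5 without any plain DSLB library or PD-1 replicate 1 or 3 (0.0565 to 0.0683), and both without the low-count filter (0.101 and 0.201). RFC3 (−0.18), RFC1 (−0.11) and RFC4 (−0.05) did not pass (edgeR adjusted p = 0.158, 0.341 and 0.700). None of the 3 RPA genes passed, with RPA1 at −0.08 (SE 0.0498, edgeR adjusted p = 0.275), RPA2 at −0.05 (SE 0.0601, edgeR adjusted p = 0.566) and RPA3 at 0.34 (SE 0.138, edgeR adjusted p = 0.0803). RPA3 was at 31.2, 31.4 and 28.8 CPM with plain DSLBs and 43.7, 34.6 and 37.7 CPM with PD-1, all 3 above the plain DSLB libraries.

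Genes of Okazaki fragment maturation did not pass with PD-1 alone. FEN1, the nuclease that trims the flaps, had −0.30 (SE 0.114, edgeR adjusted p = 0.0573) and LIG1, the ligase that joins the fragments, −0.15 (SE 0.0853, edgeR adjusted p = 0.212). All 3 genes of nucleotide supply were lower. The thymidylate synthase TYMS fell by 0.29 (SE 0.0881, edgeR adjusted p = 0.0183), RRM2, the regulated subunit of ribonucleotide reductase, by 0.27 (SE 0.0729, edgeR adjusted p = 0.00858) and RRM1, its large subunit, by 0.23 (SE 0.0673, edgeR adjusted p = 0.0158). TYMS lost its call without plain DSLB replicate 1 or 3 or PD-1 replicate 2 (edgeR adjusted p = 0.0853 to 0.0891), RRM1 without plain DSLB replicate 1 or PD-1 replicate 2 or 3 (0.0686 to 0.0981), with the length trend removed (−0.19, 0.0650) and without the low-count filter (0.0697), and RRM2 without plain DSLB replicate 1 (0.0555). CHAF1A fell from 22.2 ± 1.49 to 15.7 ± 1.14 CPM (SD, n = 3 each), a log2 fold change of −0.50 (SE 0.117, edgeR adjusted p = 0.00262).

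Each of the 7 groups with a second protein was also compared with plain DSLB hybrids. These comparisons share the 3 plain DSLB libraries with each other and with that of PD-1, so their values are given side by side and are not independent. With CD2, 31 of the 39 genes were lower, with a median log2 fold change of −0.37, where 15.4% of all genes were lower and 29.6% called in either direction. With CD27, CD40L and CTLA4 31 were lower in each, with medians of −0.38, −0.42 and −0.37, where 11.4%, 12.3% and 17.2% of all genes were lower and 23.8%, 25.5% and 34.2% called. With ICOS 33 were lower, with a median of −0.42, where 9.80% of all genes were lower and 19.6% called. With LAG3 30 were lower and 1 higher, with a median of −0.35, where 14.1% of all genes were lower, 16.2% higher and 30.3% called. With TIGIT 18 were lower and 2 higher, with a median of −0.22, where 11.6% of all genes were lower, 10.9% higher and 22.5% called. The TIGIT count of 20 depended on single libraries, and was 12 without plain DSLB replicate 1, 13 without plain DSLB replicate 3, 12 without PD-1/TIGIT replicate 1 and 10 without PD-1/TIGIT replicate 2, counting both directions. The medians of all genes lay between 0.00 and 0.03 in these comparisons.

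**Figure D4:**
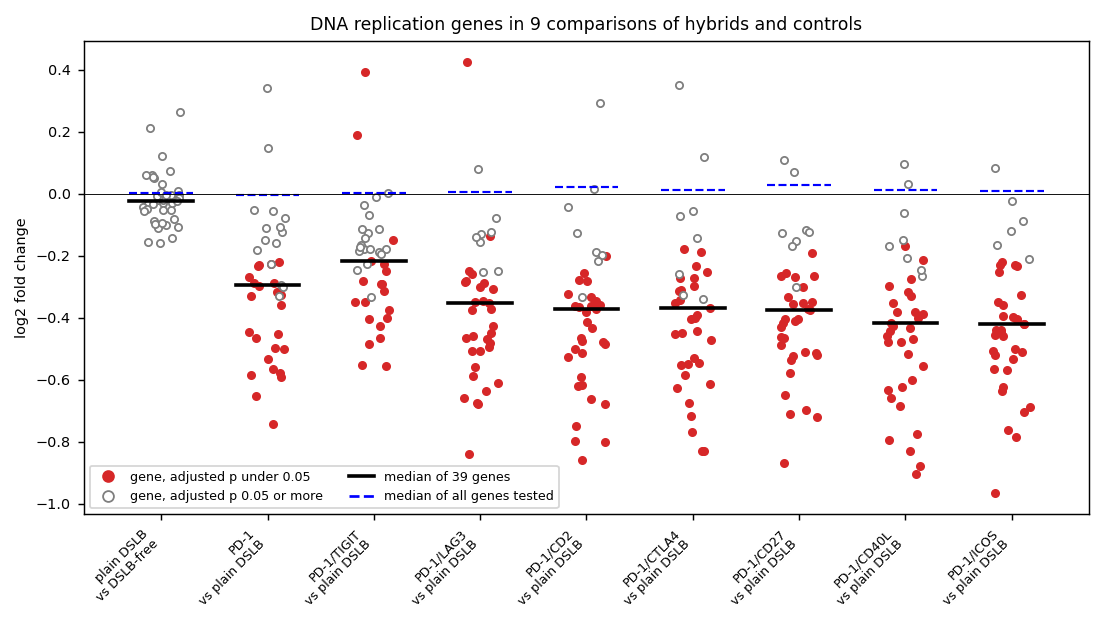
Log2 fold changes (y axis) of the 39 DNA replication genes (points, red where edgeR's adjusted p was under 0.05) in 9 comparisons (x axis), with the median of the 39 (black bar) and of all genes tested (blue dashes). In plain DSLB hybrids against DSLB-free tumoroids the median is −0.02 and no point is red, and against plain DSLB hybrids the medians lie between −0.22 (TIGIT) and −0.42 (CD40L and ICOS).

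MCM4 and CDC6 were among the 3 members with the smallest p in all 8 protein groups against plain DSLBs. MCM4 had log2 fold changes between −0.40 (TIGIT) and −0.68 (CTLA4), and CDC6 between −0.47 (TIGIT) and −0.80 (CD40L). The largest falls of a single gene were those of GINS2, −0.97 with ICOS and −0.90 with CD40L. LIG1 was not called in any of the 8 groups, and CDT1 was called with CD2 and CD27 but not in the other 6. Over the mean of the 8 protein groups, 35 of the 39 genes were lower than with plain DSLBs, where 18.7% of all genes were lower and 36.9% called, and MCM5, RFC4, RPA3 and LIG1 were not called. The median log2 fold change was −0.37 with a median SE of 0.0614. By role, the medians were −0.62 for licensing, −0.53 for helicase activation, −0.42 for polymerases delta and epsilon, −0.39 for the MCM ring and for nucleotide supply, −0.24 for the clamp and its loader and −0.13 for single-strand binding. Against DSLB-free tumoroids the same mean gave 34 lower genes (19.3% of all genes lower, 39.1% called) and PD-1 alone gave 26 (12.4% lower, 26.4% called), with medians of −0.38 and −0.33.

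MCM5 and RPA3 departed from the rest. MCM5 ranged from 49.9 to 61.9 CPM over the 6 control libraries (median 51.6) and from 51.4 to 62.3 CPM over the 24 protein libraries (median 56.8), so the sets overlapped. Against plain DSLBs it was called in the TIGIT group alone, where it was at 60.7, 62.3 and 59.6 CPM (0.19, SE 0.0677, edgeR adjusted p = 0.0458). RPA3 ranged from 27.8 to 32.7 CPM over the controls (median 31.3) and from 27.8 to 53.7 CPM over the protein libraries (median 34.4). It was called with TIGIT, at 38.9, 42.1 and 39.3 CPM (0.39, SE 0.138, edgeR adjusted p = 0.0421), and with LAG3, at 34.0, 35.1 and 53.7 CPM (0.42, SE 0.138, edgeR adjusted p = 0.0220). The LAG3 value rested on replicate 3, the library that stood apart most, and without it the log2 fold change was 0.18 (edgeR adjusted p = 0.331). Without plain DSLB replicate 3 that call was lost as well (0.0850). All 3 calls were lost with the length trend removed (0.15, edgeR adjusted p = 0.0968, for MCM5, and 0.23 and 0.22, edgeR adjusted p = 0.154 and 0.129, for RPA3 with TIGIT and LAG3) and both TIGIT calls without any single PD-1/TIGIT library (edgeR adjusted p = 0.0663 to 0.137). Without a plain DSLB library the TIGIT call of RPA3 was lost for each (0.0745 to 0.128), and that of MCM5 for replicates 2 (0.201) and 3 (0.117). By limma-trend on TPM none of the 3 passed (0.08 for MCM5, and 0.23 and 0.21 for RPA3 with TIGIT and LAG3). The MCM5 call was also lost with RLE factors and both other count filters (edgeR adjusted p = 0.0520 to 0.110), and the LAG3 call of RPA3 with edgeR on the 6 libraries alone (0.104). The ratio of RPA3 to RPA1 in TPM was 0.681 ± 0.0411 in DSLB-free tumoroids, 0.679 ± 0.0560 with plain DSLBs and 0.886 ± 0.109 with PD-1 (SD, n = 3 each). With a second protein the means lay between 0.769 ± 0.0228 (ICOS) and 0.990 ± 0.217 (LAG3), with TIGIT at 0.970 ± 0.0969.

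**Figure D5:**
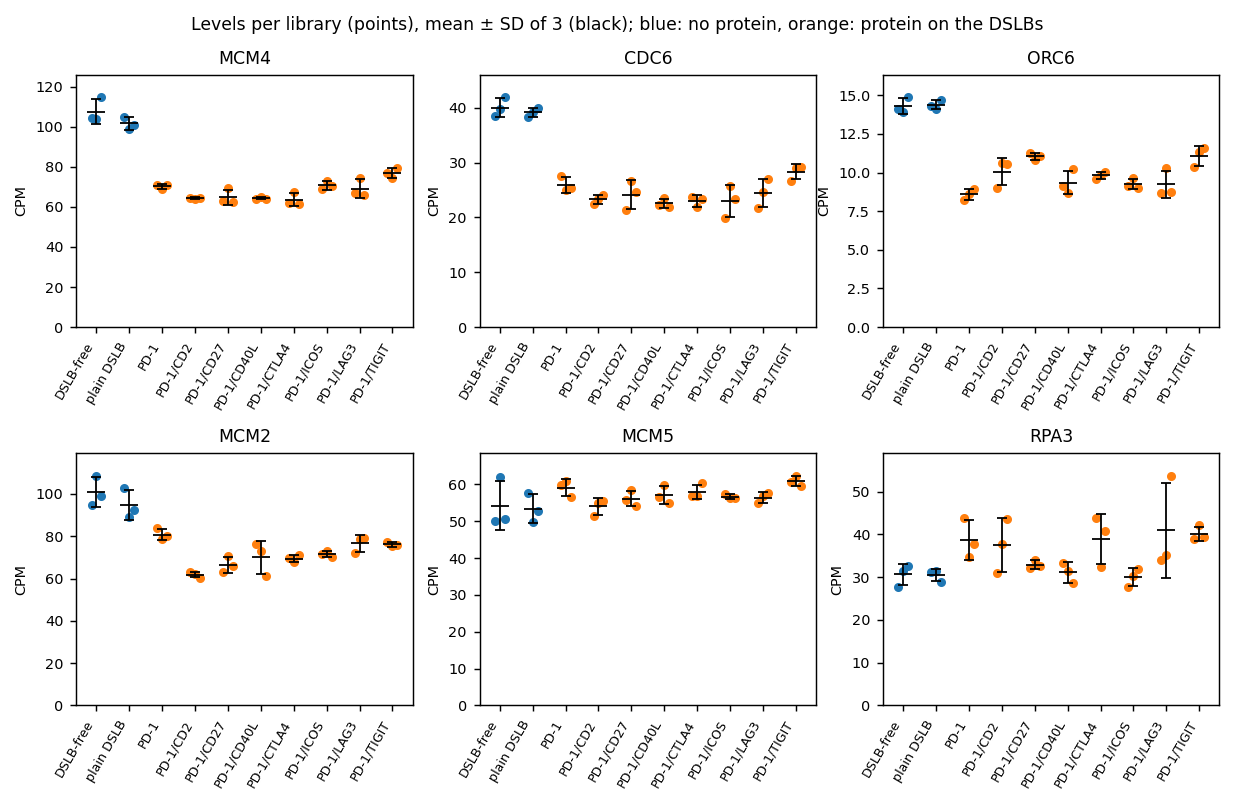
CPM (y axes, from 0) of MCM4, CDC6, ORC6, MCM2, MCM5 and RPA3 in the 10 groups (x axes), with the 3 libraries as points (blue without and orange with protein on the DSLBs) and the mean ± SD in black. MCM4, CDC6, ORC6 and MCM2 show no overlap between blue and orange points, whereas those of MCM5 and RPA3 overlap, with PD-1/LAG3 replicate 3 at 53.7 CPM for RPA3.

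The study's own comparison set each second protein against PD-1 alone, and there few replication genes differed. These comparisons share the 3 PD-1 libraries. With CD2, 1 of the 39 was called, beside 1.23% of all genes (0.499% lower and 0.733% higher), and 10 of the 39 had an unadjusted p under 0.05, beside 15.4% of all genes. The gene called was MCM2, at 83.7, 78.5 and 80.1 CPM with PD-1 and 62.9, 62.3 and 60.5 CPM with PD-1/CD2. The PD-1/CD2 libraries were all lower, by 0.38 on the log2 scale (SE 0.0692, edgeR adjusted p = 0.0111), and with edgeR on the 6 libraries alone the change of −0.38 did not pass (edgeR adjusted p = 0.130). It was not called without PD-1 replicate 1 (edgeR adjusted p = 0.0782) or without PD-1/CD2 replicate 3 (0.0586). With CD27, 2 of the 39 were called, beside 2.29% of all genes (0.233% lower and 2.05% higher), and 7 of the 39 had an unadjusted p under 0.05, beside 17.0% of all genes. MCM2 was lower at 63.0, 70.5 and 66.0 CPM (−0.28, SE 0.0692, edgeR adjusted p = 0.0283). ORC6 was higher, at 11.3, 10.8 and 11.1 CPM against 8.20, 8.62 and 8.92 CPM with PD-1 (0.37, SE 0.0791, edgeR adjusted p = 0.0119), and still below all plain DSLB libraries. Both calls were lost when replicate 1 of PD-1 was left out (edgeR adjusted p = 0.184 for MCM2 and 0.128 for ORC6), and likewise replicate 2 of PD-1 (0.0556 for each). They were also lost when CD27 hybrids lacked replicate 1 (0.169 and 0.0911) or 3 (0.125 and 0.0815), and without the 3 libraries that stood apart (0.124 and 0.0994). By limma-trend on TPM MCM2 did not pass with CD2 (−0.48, adjusted p = 0.0755) or CD27 (−0.28, adjusted p = 0.216). The nuclear transcripts summed to 2100 to 3209 TPM with CD2 and 2033 to 2829 TPM with CD27 against 1424 to 1694 TPM with PD-1, and the mitochondrial mRNAs to 44548 to 73001 and 67991 to 81581 against 30800 to 49840 TPM. Their part in these differences was not tested.

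For the other 5 proteins none of the 39 genes passed edgeR against PD-1 alone, where 0.0109% (CD40L), 0.0434% (CTLA4) and 0% (ICOS, LAG3 and TIGIT) of all genes did. The numbers with an unadjusted p under 0.05 were 15 with CD40L, 10 with CTLA4, 13 with ICOS, 4 with LAG3 and 3 with TIGIT, each of 39, beside 11.3%, 13.3%, 10.2%, 5.71% and 3.70% of all genes. Fitted to all 30 libraries, neither DESeq2 nor limma-voom called any of the 39 for these 5 proteins, while DESeq2 on the 6 libraries compared called 4 for ICOS and none for the other 4. The smallest p-values belonged to GINS1 (−0.32, SE 0.0941, edgeR adjusted p = 0.181) and MCM2 (−0.20, SE 0.0693, edgeR adjusted p = 0.278) with CD40L, and to RRM2 (−0.26, SE 0.0731, edgeR adjusted p = 0.176) and MCM2 (−0.22, SE 0.0690, edgeR adjusted p = 0.212) with CTLA4. They were RPA1 (−0.15, SE 0.0498, edgeR adjusted p = 0.388) and RPA2 (−0.17, SE 0.0600, edgeR adjusted p = 0.390) with ICOS, and PRIM2 (−0.17, SE 0.0657, edgeR adjusted p = 0.820) and MCM10 (−0.26, SE 0.117, edgeR adjusted p = 0.820) with LAG3. With TIGIT they were ORC6 (0.37, SE 0.0788, edgeR adjusted p = 0.892) and MCM4 (0.13, SE 0.0575, edgeR adjusted p = 1.00). The median log2 fold change of the 39 against PD-1 was −0.10 with CD2 and CD27, −0.14 with CD40L, −0.11 with CTLA4, −0.13 with ICOS, −0.06 with LAG3 and 0.06 with TIGIT, while that of all genes was between −0.01 and 0.01. TIGIT was the group with most members above PD-1, with 4 of 39 at a negative log2 fold change against 30 to 36 in the other 6 groups. Across all 10 groups at once, edgeR called 33 of the 39 genes, beside 41.0% of all genes, and GINS3, LIG1, MCM5, PRIM1, RFC1 and RPA2 were not called.

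Of 41 other genes of the replication pathway, all tested, 17 were lower and 3 higher in PD-1 than in plain DSLB hybrids, with a median log2 fold change of −0.17, where 10.7% of all genes were lower and 11.3% higher. CLSPN, the adaptor that relays stalled forks to the checkpoint kinase CHK1, had the largest fall, −0.89 (SE 0.0970, edgeR adjusted p = 1.48e-07). UHRF1 (−0.65) and DNMT1 (−0.53), which copy DNA methylation onto new strands, also fell, as did the topoisomerases TOP2A (−0.62) and TOP1 (−0.32). ATAD5 (−0.62), which unloads PCNA, DNA2 (−0.55), a nuclease of flaps, TICRR (−0.55), needed for origin firing, WDHD1 (−0.51), CHAF1B (−0.50), the partner of CHAF1A, and TIMELESS (−0.39), of the fork protection complex, fell as well. The remaining lower genes were MTBP, ASF1B, DSCC1, CDC7, TOPBP1 and POLE3, between −0.37 and −0.20. The 3 higher genes were POLD4, the smallest subunit of polymerase delta (0.77, SE 0.167, edgeR adjusted p = 0.00190), RNASEH2B, of the RNase that removes ribonucleotides (0.34, SE 0.0660, edgeR adjusted p = 0.000488), and DUT, which hydrolyses dUTP (0.31, SE 0.0862, edgeR adjusted p = 0.00967). Over the mean of the 8 protein groups 21 of the 41 were lower and 3 higher, where 18.7% of all genes were lower and 18.2% higher. Against PD-1 alone CHTF8, of an alternative clamp loader, was called with CD2 (−0.27, SE 0.0615, edgeR adjusted p = 0.0275), and none of the 41 with the other 6 proteins. Between plain DSLB hybrids and DSLB-free tumoroids none of the 41 was called.

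Over the 30 libraries the log2 CPM of most of the 39 genes was positively correlated. The median Pearson correlation of their 741 pairs was 0.685, and 677 pairs were positive. Values of a library share its depth and composition, and libraries of a group share their condition. After each gene was centred on its group means the median was 0.188 and 496 pairs were positive. CDC6 had the highest median correlation with the other members, 0.840, followed by MCM4 at 0.826, TYMS at 0.808 and MCM6 at 0.808. MCM5 (−0.170) and RPA3 (−0.137) were the 2 genes with a negative median, and centred on group means they were at 0.112 and 0.310. These correlations describe the libraries and carry no test, and none was computed for other genes to compare them with.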

How the data were processed

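Per the labels, 30 PANC-1 cultures in 10 groups of 3 gave RNA-seq libraries, and groups and replicate numbers come from their titles. The authors trimmed the reads, mapped them to hg38 using STAR and quantified genes using RSEM. Other programs in the submitters' processing notes were Trim Galore 0.3.3, SAMtools 1.3.1 and FastQC 0.11.2, and neither the annotation release nor the strand setting was given in the sources used here. The deposited expected counts per gene come from RSEM without normalization. Deposited TPM values, computed by the authors, allow for transcript length, and the deposited effective length served for the length trend alone.

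Here, expected counts were rounded, the filterByExpr function by group left 18424 genes, and TMM gave library sizes. Differences were tested by quasi-likelihood (robust) in edgeR 4.0.16, with a mean for every group fitted to all 30 libraries, and Benjamini-Hochberg adjustment over the genes kept at a threshold of 0.05. CPM values are on TMM library sizes. Depth was 21.9 to 60.5 M counts, and the biological coefficient of variation was 0.0942. The p-values set group differences against the spread between these cultures of a single cell line, estimated over all 30 libraries. The labels and the study's methods call the cultures biological replicates. The tests by edgeR, DESeq2 and limma were tried on simulated counts, for PD-1 against plain DSLB hybrids alone. Other steps were not tried on them.

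Genes were named if they were members past the threshold, the highest or lowest of a role by TPM, the 2 smallest p-values where none passed, or called genes of the other pathway list. The members and lists were chosen with earlier results of these data known. Comparisons of protein groups with plain DSLB hybrids (other than PD-1 alone) and with DSLB-free tumoroids, and leaving out the 3 libraries that stood apart, were added after the data were seen. The TPM ratios between pairs of genes were not part of the planned tests or descriptions. Alternatives were DESeq2 1.42.0, limma 3.58.1 (voom, or limma-trend on log2(TPM + 0.5)), RLE factors, other count filters (none, 39960 genes, or at least 100 counts on average, 12668 genes), removal of a length trend (spline with 5 degrees of freedom), a replicate block, only the libraries compared, a threshold of 0.1, and single libraries left out. Software was R 4.3.3 with Python 3.11.15, matplotlib 3.10.9, pandas 2.3.3 and numpy 2.4.6.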

Additional observations from a re-analysis of the deposited data

How the results depend on the processing

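Apart from leaving out single libraries, 245 counts of called members were recomputed, and 230 were within 1.5 times the value reported. Log2 fold changes were followed for 30 calls. They were those of PD-1 against plain DSLBs, of CD2 and CD27 against PD-1, and of higher members with a second protein against plain DSLBs. Under alternatives, single libraries left out included, they gave 540 values, of which 468 kept their call, 72 no longer passed and none changed sign. Lower members with a second protein against plain DSLBs, and calls of pooled protein groups or against DSLB-free tumoroids, were not followed in this way. PD-1 against plain DSLB hybrids gave 22 to 29 called members by tool, filter, scaling and length trend, 27 at a threshold of 0.1, and 17 to 24 with a library left out. The counts outside 1.5 times were those against PD-1 alone. Without the low-count filter CD40L and ICOS gave 1 each, with the length trend removed CD2 gave 2 and CD27 4, and CD2 gave 0 with limma-trend on TPM and with edgeR on the compared libraries. DESeq2 on the compared libraries gave 4 for ICOS, and without the 3 libraries that stood apart CD27 gave 0. With plain DSLB hybrids as the reference the counts were 31 (CD2, CD27, CD40L, CTLA4 and LAG3), 33 (ICOS) and 20 (TIGIT). Leaving out single libraries gave 0 to 2 for CD2 and for CD27 against PD-1, and 10 to 16 for TIGIT against plain DSLBs. The cause was not tested.

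The study's methods describe 3 parallel sets of all conditions, but no label ties a replicate number to a set, and the numbers did not pair the libraries. Same-numbered libraries of different groups had a mean correlation of 0.0104 in their deviations, 17 of 135 pairs were over 0.1, and 13 of 30 libraries correlated best with their own number. With the number as a replicate block 24 members were called for PD-1 against plain DSLBs, 1 for CD2 and 2 for CD27 against PD-1, and 34 across the 10 groups, and no count left the range of 1.5 times. GINS3 had the lowest mean count of the members, 191 per library, and whether depth limited the calls of such genes was not tested.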
